A study of Homo sapiens with 24 samples.

Results

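The 50 genes described here encode proteins of the lysosome and of the vacuolar proton pump (V-ATPase). They were chosen by name and not by their values: 27 listed lysosomal genes, and the 23 protein-coding rows whose symbol begins with ATP6V, out of 60504 rows of the expression table. Of the 23 pump genes, 9 belong to the membrane sector V0 and 14 to the cytosolic sector V1. One of the 14, ATP6V1G2-DDX39B, is a readthrough transcript that joins a pump gene to its neighbour.

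RNA was sequenced from 3 human cancer cell lines 48 hours after they received a small interfering RNA (siRNA) against GCDH, a mitochondrial enzyme of lysine breakdown (siGCDH), or a control siRNA (siControl). The lines were A375, labelled as melanoma, SK-Hep1, labelled as liver cancer, and SKBR3, labelled as breast cancer, and the labels name no other genotype or agent. A375 was measured as batch 1 with a kit that reads the 3′ ends of transcripts, and as batch 2 with the full-length poly(A) kit also used for SK-Hep1 and SKBR3, which gave 24 libraries in 8 groups of 3. Wells were seeded in triplicate, so p-values measure the spread between wells, which may be technical. The values are TPM, a level that counts a gene's transcripts as a part of all transcripts. They are corrected for transcript length and have a fixed sum per library, so the read depth behind them is unknown. Levels from the 3′ end kit were not set against those of the other kit. In bulk RNA, a change in the number of cells of a kind and a change in RNA per cell cannot be told apart.

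Lysosomes break down proteins, sugars, lipids and nucleic acids with hydrolases that work best in acid. The V-ATPase makes that acid: the V1 sector splits ATP and turns a rotor, which drives protons through the ring of the V0 sector into the lumen. Many genes of both systems carry a short palindromic element in their promoters that the transcription factors TFEB and TFE3 bind, and the same membrane is where the growth kinase mTORC1 senses amino acids.

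The targeted transcript, GCDH, was lower with siGCDH throughout, without overlap. It had 0.31 to 1.5 TPM after 1.77 to 6.69 TPM in batch 1, 3.41 to 3.91 after 19.3 to 22.7 in batch 2, 2.25 to 3.25 after 8.97 to 9.79 in SK-Hep1, and 4.61 to 7.60 after 22.0 to 22.8 in the libraries labelled SKBR3. Exact permutation of the 6 libraries gave p = 0.1 each time, which is the floor for groups of 3. The libraries labelled SKBR3 go against their label: their siControl libraries summed to 96.1 to 100.1 TPM over 8 markers of breast epithelium with amplified ERBB2, against 6265 to 6520 TPM in SK-Hep1, and their ERBB2 level was 25.5 TPM against 46.4 in SK-Hep1 and 32.7 in A375 batch 2. They are called libraries labelled SKBR3 below. SK-Hep1 held 5 hepatocyte markers at a sum of at most 2.39 TPM and 5 endothelial markers at no more than 0.19 TPM. Markers of macrophages, cells rich in lysosomes, summed to at most 8.03 TPM over 6 genes in any library. In batch 1, the summed share of 4 large non-coding rows was 17.1% in siControl libraries and 33.0% in siGCDH libraries, and averaged at most 0.0826% in any group of the other kit. For single genes of batch 1, TPM are as deposited, and overlap between groups was not counted after rescaling. In the libraries labelled SKBR3, 15140 to 15181 genes reached 1 TPM with siControl and 17112 to 17251 with siGCDH. Their mitochondrial share averaged 2.06% and 4.88%. The median gene moved by -0.20 on the log2 scale in batch 1, by 0.18 in SK-Hep1 and by 0.29 in the libraries labelled SKBR3. The counts and medians over the tested genes are therefore given beside those of all genes. The counts by role further on are to be read against the same shares of all genes.

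The 3 lines carried different amounts of lysosomal transcripts before any knockdown. Summed over the 50 genes, siControl libraries held 4239 ± 30.4 TPM in A375 batch 2, 5089 ± 66.3 in SK-Hep1 and 3440 ± 38.1 in the libraries labelled SKBR3 (SD, n = 3). CD63, a tetraspanin of late endosomes and lysosomes, and PSAP, the precursor of the saposins that help lipid hydrolases, were the most abundant pair in each of these groups. SK-Hep1 had the larger sum for the 27 lysosomal genes (3938 ± 48.7 TPM against 2782 ± 4.16 in A375 batch 2 and 1920 ± 24.1 in the libraries labelled SKBR3), but the smaller one for the 23 pump genes (1151 ± 18.2 TPM against 1457 ± 33.5 and 1520 ± 14.9). In each group between 42 and 46 of the 50 genes reached a mean of 1 TPM. The median of those that did in siControl was 49.2 TPM in A375 batch 2, 64.4 in SK-Hep1 and 53.0 in the libraries labelled SKBR3, against 16.4, 16.2 and 15.5 TPM for all genes that reached 1 TPM.

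The siControl libraries of the full-length kit were compared in pairs with limma on log2(TPM + 1), where genes with an adjusted p under 0.05 over all genes tested are called. These comparisons share libraries with each other and with the comparisons of treatment. A375 batch 2 against SK-Hep1 called 20 of 46 tested genes higher and 21 lower, against 45.7% higher and 29.3% lower of all genes. By family, 17 of 27 lysosomal genes were lower in A375, while of 19 pump genes 13 were higher and 4 lower, or 8 and 5 after median scaling, which sets the median expressed gene equal across libraries. For the whole set that scaling gave 14 higher and 25 lower, against 5866 and 5305 of all 15203 genes tested. A375 batch 2 against the libraries labelled SKBR3 called 20 of 46 higher and 17 lower, against 34.5% and 40.5% of all genes. SK-Hep1 against the libraries labelled SKBR3 called 22 of 46 higher and 14 lower, against 28.9% and 50.5%, and 19 of 27 lysosomal genes were higher in SK-Hep1 while 11 of 19 pump genes were lower and 3 higher, or 10 and 5 after median scaling. On this log2 scale, which understates the change of genes with low values, the differences were large for single enzymes. CTSK, a collagen-cutting cysteine protease best known from osteoclasts, had 26.7, 24.2 and 24.2 TPM in A375 batch 2 siControl against 2.50, 1.63 and 1.16 in SK-Hep1 and 1.38, 0.83 and 0.54 in the libraries labelled SKBR3 (log2 differences of 3.26 and 3.78, SE 0.18 and 0.17, limma adjusted p = 3.52e-06 and 1.29e-06). In the libraries labelled SKBR3 its siControl mean of 0.917 TPM was under the filter of 1 TPM, so it entered that comparison through A375, where it is higher. CTSZ, a carboxypeptidase, stood at 242 ± 12.6 TPM in A375 batch 2, 120 ± 3.54 in SK-Hep1 and 14.1 ± 0.629 in the libraries labelled SKBR3. GLA, which removes terminal alpha-galactose from glycolipids, was highest in the libraries labelled SKBR3 instead, with 188 ± 9.02 TPM there, 36.5 ± 1.00 in A375 batch 2 and 26.8 ± 1.53 in SK-Hep1. None of these 3 sets of libraries overlapped with another for CTSZ or GLA.

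The first question the design poses is what siGCDH did to these transcripts within each line, and the answer differed between lines. In SK-Hep1, 27 of the 45 tested genes rose and 7 fell (60.0% and 15.6%, against 37.3% higher and 18.2% lower of all 14557 genes tested). In the libraries labelled SKBR3, 26 of 45 rose and 9 fell (57.8% higher, against 47.3% higher and 14.7% lower of 16494). In A375 batch 2, 10 of 45 rose and 12 fell (22.2% and 26.7%, against 17.9% and 15.7% of 15185), and in A375 batch 1 none of 42 rose and 1 fell, against 1.18% and 6.73% of 12868. The median log2 difference of the tested genes was 0.31 in SK-Hep1 against 0.18 for all genes, 0.26 against 0.29 in the libraries labelled SKBR3, -0.09 against 0.02 in A375 batch 2 and -0.32 against -0.20 in A375 batch 1. After median scaling the split in the libraries labelled SKBR3 turned to 13 higher and 14 lower, with 8 and 8 lysosomal and 5 and 6 pump genes, where 30.6% of all genes were higher and 25.3% lower. In SK-Hep1 it was 23 and 7 (4200 and 3341 of all genes, 28.9% being higher), and in A375 batch 2 it was 11 and 12 (17.6% and 16.1%). In batch 1 the single call, PSAP, was lost whenever any 1 of the 6 libraries was left out.

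**Figure D1:**
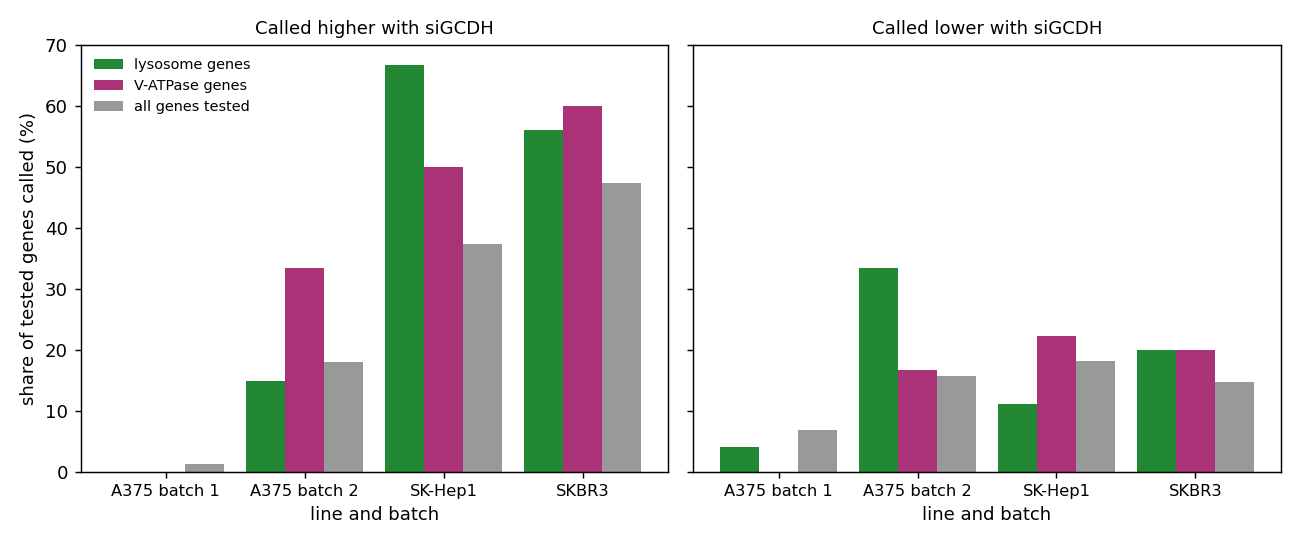
Percent of tested genes that were called higher (left) or lower (right) with siGCDH by limma, for the lysosomal genes, the V-ATPase genes and all genes tested, in each line and batch. In SK-Hep1 66.7% of lysosomal genes were higher against 37.3% of all genes, whereas in A375 batch 2 33.3% of them were lower against 15.7% of all genes.

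Summed over the 50 genes, SK-Hep1 went from 5102, 5148 and 5017 TPM with siControl to 7093, 7127 and 7062 TPM with siGCDH. The sum went from 4239 ± 30.4 to 4380 ± 14.7 TPM in A375 batch 2, from 3440 ± 38.1 to 3752 ± 6.69 TPM in the libraries labelled SKBR3, and from 3561 ± 156 to 3069 ± 190 TPM in A375 batch 1. The groups did not overlap in any of these 4 pairs. The direction in batch 1 depends on the scaling: with the mitochondrial and the 4 large non-coding rows removed and the rest brought to the same total, an alternative chosen after seeing the data, its sum went from 4543 ± 286 to 4835 ± 291 TPM, with overlap, while the other 3 kept their direction.

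**Figure D2:**
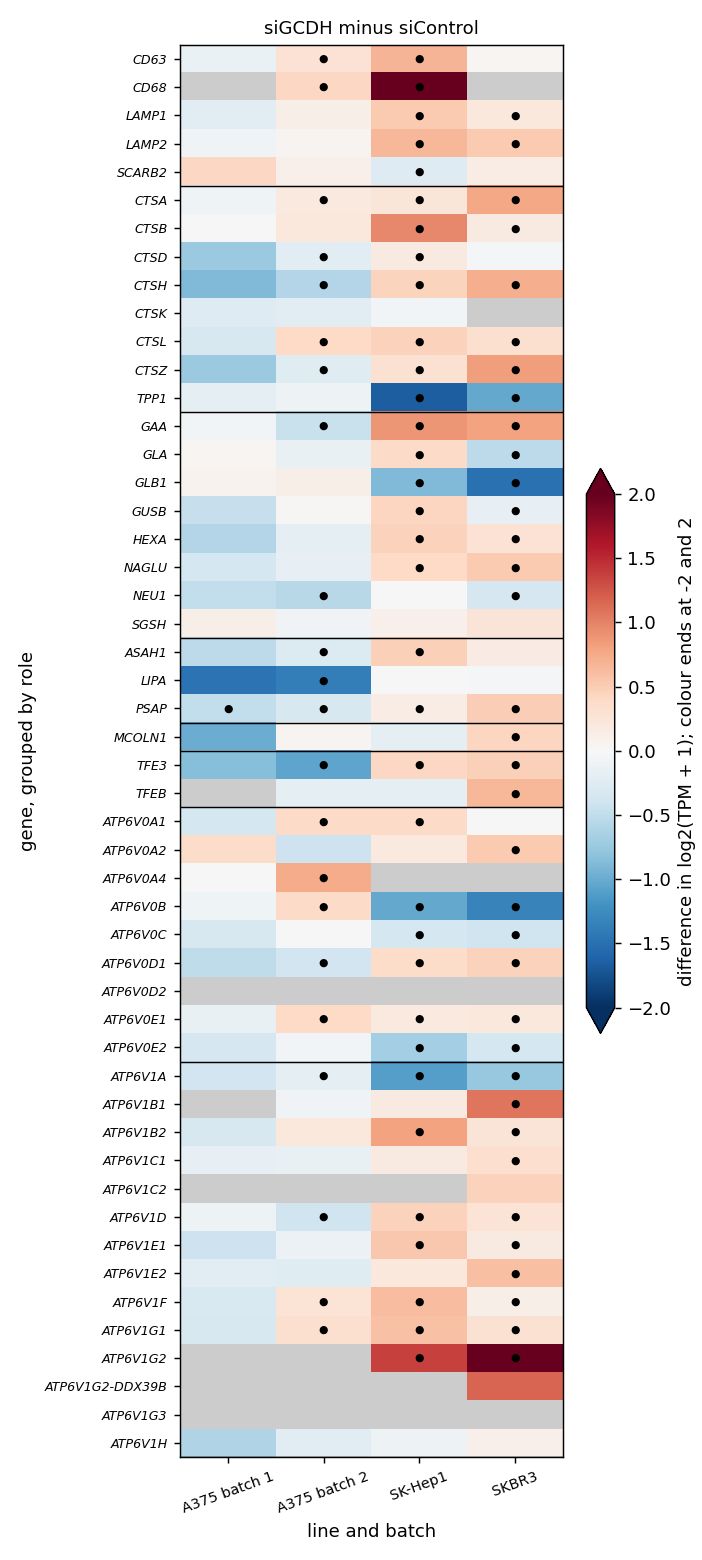
Difference in log2(TPM + 1), siGCDH minus siControl, for the 50 genes in each line and batch, grouped by role from membrane proteins at the top to the V1 sector at the bottom. A dot marks a call by limma at an adjusted p under 0.05, grey marks a gene that was not tested because its mean was under 1 TPM, and colour ends at -2 and 2, which CD68 in SK-Hep1 and ATP6V1G2 in the libraries labelled SKBR3 exceed.

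Among the 5 membrane proteins, all were called in SK-Hep1, 4 higher and 1 lower, where 37.3% of all genes were higher and 18.2% lower. CD68, a heavily glycosylated protein of late endosomes and lysosomes that is abundant in macrophages, had 58.4, 60.9 and 65.1 TPM with siControl and 349, 370 and 366 TPM with siGCDH in SK-Hep1 (log2 difference 2.54, SE 0.05, adjusted p = 1.29e-07). The fitted difference is 5.81-fold on the TPM + 1 scale, and the groups did not overlap. The 6 macrophage markers summed to 2.84 to 3.95 TPM in the SK-Hep1 siControl libraries and 2.56 to 3.60 TPM with siGCDH. CD68 also rose in A375 batch 2, from 35.0, 30.0 and 31.5 to 45.4, 40.6 and 43.7 TPM (0.42, SE 0.08, adjusted p = 0.00571). In the libraries labelled SKBR3 it was listed at 0 in all 3 siControl libraries and at 0.04, 0.65 and 1.24 TPM with siGCDH, too low to be tested. CD68 lies on chromosome 17, from 7579467 to 7582113 on the plus strand of GRCh38, beside the highly expressed EIF4A1, and shares exon bases with 2 other annotated transcripts. Those neighbours did not move in the same measure in SK-Hep1: EIF4A1 had 1663 TPM with siControl and 1484 with siGCDH, the overlapping transcript on the same strand 2.97 and 2.23 TPM, and the antisense one 5.49 and 10.2 TPM. How the counting treated strand is not given in the sources used here, so reads of overlapping genes may not be told apart.

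CD63 rose in SK-Hep1 from 938, 929 and 911 to 1555, 1467 and 1413 TPM (0.67, SE 0.04, adjusted p = 9.76e-06) and in A375 batch 2 from 759 ± 28.97 to 924 ± 25.2 TPM (0.28). In the libraries labelled SKBR3 it had 324 ± 16.7 and 332 ± 1.84 TPM and was not called. LAMP1 and LAMP2, the major glycoproteins of the lysosomal membrane, rose in SK-Hep1 by 0.52 and 0.66, and LAMP2 rose by 0.53 in the libraries labelled SKBR3. LAMP1 was called there too at 0.21, but its groups overlapped, with 64.0, 66.6 and 78.5 TPM against 78.4, 81.4 and 81.6, and the value turned to -0.03 and was not called after median scaling. SCARB2, the receptor that carries glucocerebrosidase to lysosomes, was the member of this group that fell in SK-Hep1, from 63.7, 66.6 and 68.9 to 48.0, 60.2 and 58.2 TPM (-0.26).

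Of the peptidases, 6 of 8 rose and 1 fell in SK-Hep1, against 37.3% and 18.2% of all genes. In the libraries labelled SKBR3 5 of 7 rose and 1 fell, against 47.3% and 14.7% of all genes. After median scaling 3 rose and 2 fell there, against 30.6% and 25.3%. The count of peptidases in A375 batch 2 was 2 higher and 3 lower of 8, against 17.9% and 15.7% of all genes. CTSB, the most abundant lysosomal cysteine protease in SK-Hep1, went from 508, 523 and 516 to 995, 1000 and 1014 TPM there (0.96, SE 0.03, adjusted p = 8.27e-07). CTSA, a carboxypeptidase that also shields NEU1 and GLB1 from degradation, rose in all 3 full-length comparisons, by 0.20 in A375 batch 2, 0.24 in SK-Hep1 and 0.78 in the libraries labelled SKBR3, where it went from 42.4, 42.3 and 44.5 to 77.6, 72.1 and 73.9 TPM. CTSL, another cysteine protease, rose by 0.40, 0.46 and 0.32 in the same order, of which the last lies near the median of 0.29 over all genes there.

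CTSH and CTSZ, which trim proteins from their ends, had opposite directions in A375 and in the other lines. CTSH fell in A375 batch 2 from 13.8, 13.9 and 16.7 to 11.1, 8.42 and 9.21 TPM (-0.58, adjusted p = 0.0108) and rose by 0.44 in SK-Hep1 and 0.72 in the libraries labelled SKBR3. CTSZ fell in A375 batch 2 from 235, 235 and 257 to 205, 204 and 205 TPM (-0.24, adjusted p = 0.00536) and rose by 0.31 and 0.84. CTSD, the main aspartic protease of lysosomes, was called lower in A375 batch 2 (-0.21) and higher in SK-Hep1 (0.19), and both calls were lost under several of the alternatives. In batch 1 CTSD had 42.7, 50.6 and 36.5 TPM with siControl and 25.9, 21.0 and 29.2 with siGCDH, groups that did not overlap, at -0.75 and an adjusted p of 0.0584 that did not pass.

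TPP1, the tripeptidyl peptidase whose loss causes a form of Batten disease, went against the other peptidases. It fell in SK-Hep1 from 68.5, 61.5 and 63.4 to 18.1, 19.8 and 21.7 TPM (-1.65, SE 0.08, adjusted p = 4.11e-06) and in the libraries labelled SKBR3 from 34.2, 37.6 and 35.5 to 14.6, 17.8 and 19.2 TPM (-1.02, SE 0.10, adjusted p = 0.000142). In A375 batch 2 it had 31.1, 29.5 and 27.8 TPM with siControl and 25.1, 29.1 and 28.6 with siGCDH, which overlapped. CTSK was not called in any of the 3 comparisons in which it was tested.

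**Figure D3:**
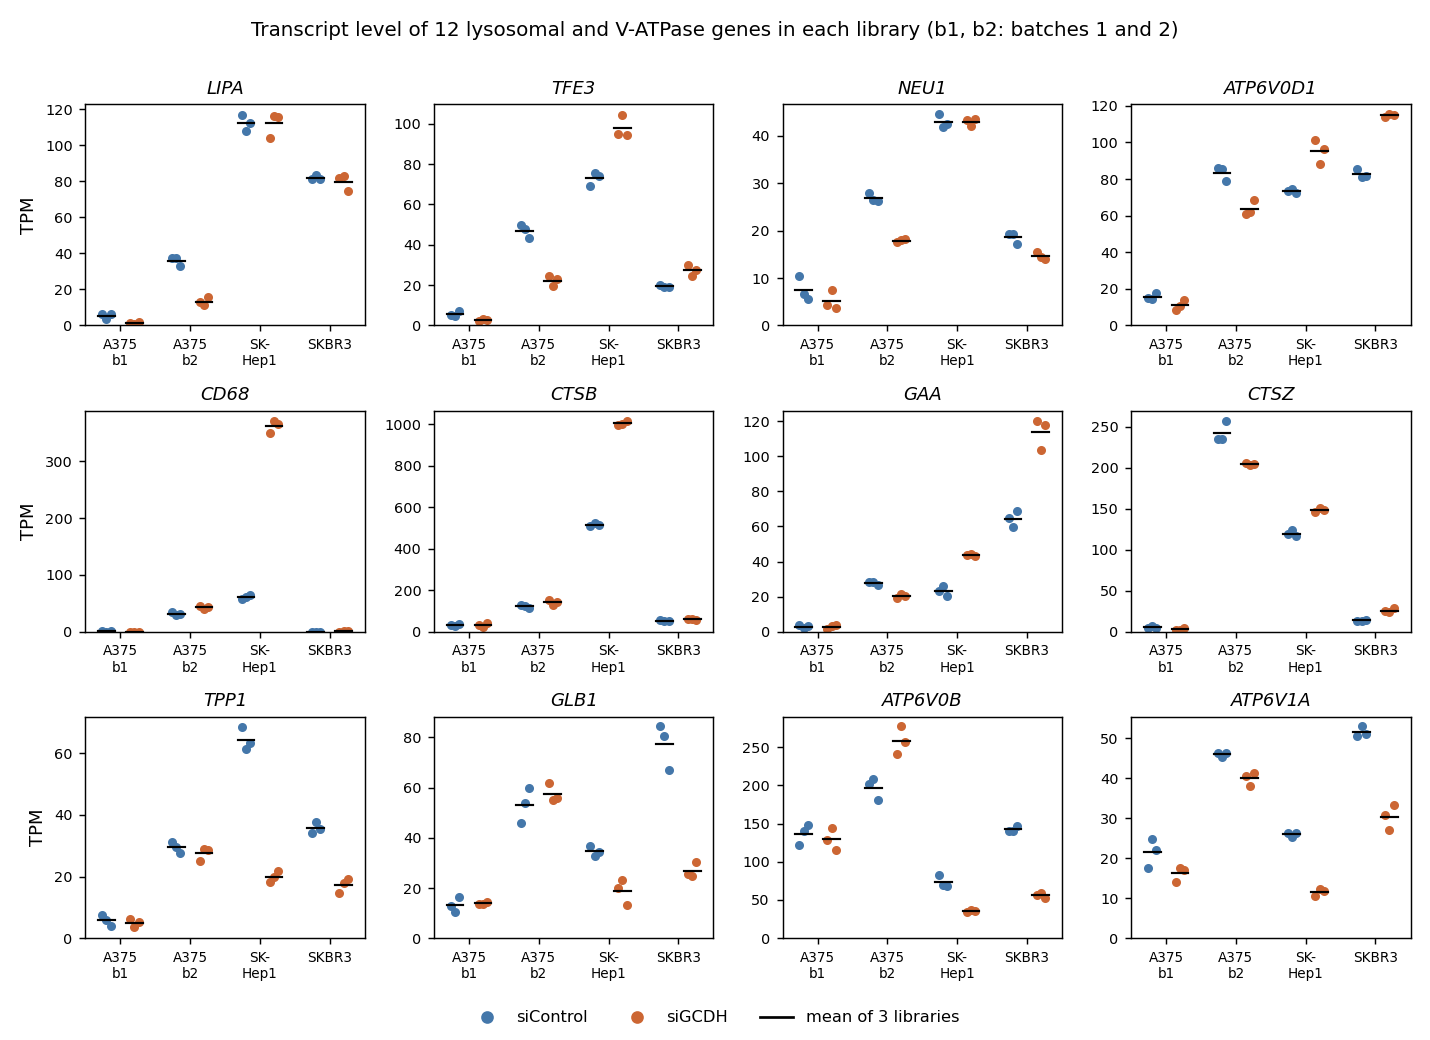
TPM of 12 genes in each of the 24 libraries (points, siControl and siGCDH side by side, with each line marking the mean of 3 libraries) by line and batch, on linear axes that start at 0. LIPA, TFE3 and NEU1 are lower with siGCDH in A375 batch 2 while LIPA and NEU1 overlap in SK-Hep1, and TPP1, GLB1, ATP6V0B and ATP6V1A are lower in SK-Hep1 and in the libraries labelled SKBR3.

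The 8 enzymes that remove sugars or their sulfates divided in the libraries labelled SKBR3, where 3 rose and 4 fell (2 and 4 after median scaling), against 5 and 1 in SK-Hep1 and 0 and 2 in A375 batch 2. The shares of all genes were 47.3% and 14.7% (30.6% and 25.3% after median scaling), 37.3% and 18.2%, and 17.9% and 15.7% in that order. GAA, which releases glucose from glycogen, rose in SK-Hep1 from 23.3, 26.0 and 20.7 to 44.0, 44.2 and 43.4 TPM (0.89, SE 0.09, adjusted p = 0.0001) and in the libraries labelled SKBR3 from 65.1, 59.8 and 68.6 to 120, 104 and 118 TPM (0.81, SE 0.07, adjusted p = 9.21e-05). It fell in A375 batch 2 from 28.7, 28.3 and 26.6 to 19.3, 21.3 and 20.2 TPM (-0.44, SE 0.07, adjusted p = 0.00296). No siGCDH library overlapped with siControl in any of the 3.

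GLB1, the lysosomal beta-galactosidase, fell in SK-Hep1 from 36.9, 32.8 and 34.2 to 19.9, 23.2 and 13.1 TPM (-0.89, SE 0.18) and further in the libraries labelled SKBR3, from 84.4, 80.8 and 66.9 to 25.5, 24.7 and 30.2 TPM (-1.49, SE 0.11, adjusted p = 3.29e-05). In A375 batch 2 it had 46.0, 53.7 and 59.8 TPM against 61.9, 55.2 and 55.9 and was not called. GLA and GUSB, the lysosomal beta-glucuronidase, rose in SK-Hep1 (0.38 and 0.44) and fell in the libraries labelled SKBR3 (-0.53 and -0.17), where GLA went from 190, 195 and 178 to 124, 139 and 126 TPM. HEXA and NAGLU, which remove terminal N-acetylated sugars, rose in both, by 0.46 and 0.40 in SK-Hep1 and by 0.30 and 0.53 in the libraries labelled SKBR3. The 0.30 of HEXA lies near the median of 0.29 over all genes in the libraries labelled SKBR3. NEU1, the sialidase, fell in A375 batch 2 from 27.97, 26.5 and 26.2 to 17.5, 18.0 and 18.2 TPM (-0.56, SE 0.07, adjusted p = 0.000747) and in the libraries labelled SKBR3 (-0.33). In SK-Hep1 it had 44.6, 41.8 and 42.4 TPM against 43.3, 42.2 and 43.5. SGSH, a sulfatase of heparan sulfate, was called in none.

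LIPA, lysosomal acid lipase, which frees cholesterol and fatty acids from ingested lipoproteins, showed the largest fall of the 45 genes tested in A375 batch 2. It had 37.2, 37.3 and 32.9 TPM with siControl and 13.0, 11.2 and 15.6 TPM with siGCDH (-1.38, SE 0.12, adjusted p = 0.000197). In batch 1 the values were 6.42, 3.72 and 6.22 against 1.62, 0.54 and 1.93 TPM, groups that did not overlap, with a difference of -1.47 that did not pass within that batch (SE 0.37, adjusted p = 0.0544). LIPA held higher levels in the other lines and was not called there: 117, 108 and 112 TPM against 104, 117 and 116 in SK-Hep1, and 81.3, 83.7 and 81.2 against 81.8, 82.8 and 74.7 in the libraries labelled SKBR3. LIPA lies on chromosome 10 from 89213569 to 89414557, on the minus strand of GRCh38. It shares 65 exon bases with IFIT2, which averaged at most 42.9 TPM in a group, and 135 with an antisense transcript of at most 6.93 TPM. Both lie on the other strand, and their part in the values was not tested.

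PSAP fell in both A375 batches, from 134, 143 and 152 to 102.8, 99.6 and 101 TPM in batch 1 (-0.50, adjusted p = 0.0347) and from 386, 396 and 375.5 to 317, 292 and 315 TPM in batch 2 (-0.33, adjusted p = 0.00133). It rose in SK-Hep1 (0.15) and in the libraries labelled SKBR3, from 323, 347 and 324 to 483, 461 and 460 TPM (0.50). The 0.15 in SK-Hep1 lies near the median of 0.18 over all genes there. ASAH1, acid ceramidase, fell by 0.28 on the log2 scale in A375 batch 2 and rose by 0.48 in SK-Hep1. MCOLN1, the lysosomal calcium channel TRPML1, was called in the libraries labelled SKBR3 (0.43) and in no other line. In batch 1 it had 3.21, 5.86 and 9.16 against 3.13, 1.40 and 2.81 TPM as deposited, groups kept apart only by 3.21 against 3.13. The large non-coding rows held 17.1% of TPM with siControl and 33.0% with siGCDH in that batch.

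TFE3 and TFEB are the transcription factors that switch on many of these genes. TFE3 fell in A375 batch 2 from 49.6, 47.7 and 43.5 to 24.3, 19.3 and 23.03 TPM (-1.05, SE 0.10, adjusted p = 0.000255). It rose in SK-Hep1 from 69.2, 75.5 and 74.1 to 95.1, 104 and 94.4 TPM (0.42, SE 0.06, adjusted p = 0.000776) and in the libraries labelled SKBR3 from 20.1, 19.1 and 19.2 to 30.1, 24.7 and 27.6 TPM (0.47, SE 0.08, adjusted p = 0.00208). Treated and control libraries did not overlap in any of these, nor in batch 1, where TFE3 had 5.02, 4.89 and 7.41 TPM against 2.12, 3.11 and 2.93 (-0.86, adjusted p = 0.112). TFEB was low throughout, at 2.53 TPM in A375 batch 2 siControl, 9.80 in SK-Hep1 and 6.21 in the libraries labelled SKBR3. Its call there (0.66, with 8.79, 5.05 and 4.78 against 8.68, 11.2 and 10.5 TPM) came from overlapping groups and was lost under 9 alternatives.

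The element these factors bind is written TCACGTGA, which reads the same on both strands and contains the shorter forms TCACGTG and CACGTG. RefSeq promoters (build GRCh38.p14, 250 bases before to 50 after the gene start) could be matched for 35 of the 50 genes. ASAH1, ATP6V0D2, ATP6V0E1, ATP6V1A, ATP6V1B2, ATP6V1C1, ATP6V1E2, ATP6V1H, CTSB, CTSK, HEXA, LAMP2, NAGLU, PSAP and SGSH were not matched. The full palindrome was found in 6 of the 35 (17.1%) and in 1.04% of all 27305 promoters, TCACGTG on either strand in 10 (28.6%, against 3.82%) and CACGTG in 11 (31.4%, against 7.43%). The 6 full matches are shown because they hold the whole element; the values of their genes follow. The windows are 5′ to 3′ on the gene's strand, with the palindrome in capitals.
LAMP1, chr13:113297199-113297228 (+): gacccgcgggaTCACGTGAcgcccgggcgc
GAA, chr17:80101493-80101522 (+): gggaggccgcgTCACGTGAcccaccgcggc
CTSA, chr20:45891298-45891327 (+): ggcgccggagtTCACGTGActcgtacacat
MCOLN1, chr19:7522571-7522600 (+): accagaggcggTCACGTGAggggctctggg
ATP6V0D1, chr16:67481199-67481228 (-): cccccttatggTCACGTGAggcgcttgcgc
ATP6V1G1, chr9:114587699-114587728 (+): acgctgtgcggTCACGTGAcaacgggggcg

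Of these 6 genes, GAA and ATP6V0D1 fell in A375 batch 2, CTSA and ATP6V1G1 rose, and LAMP1 and MCOLN1 were not called. Of all genes, 17.9% rose and 15.7% fell in A375 batch 2. In SK-Hep1, where 37.3% of all genes were higher, 5 of the 6 rose, and MCOLN1 (-0.18) was not called. All 6 were called higher in the libraries labelled SKBR3, where 47.3% of all genes were higher (30.6% after median scaling). Of these 6, LAMP1 turned to -0.03 after median scaling, and ATP6V1G1 lies near the median of 0.29 over all genes there. Median scaling took the higher calls there from 26 to 13 of the 45 lysosomal and pump genes tested. The 10 genes with TCACGTG had a median log2 difference of 0.00 in A375 batch 2, 0.21 in SK-Hep1 and 0.26 in the libraries labelled SKBR3. Matched genes without it had -0.07 (21 genes), 0.39 (21) and 0.22 (22). A match describes the letters and is neither a measured binding site nor a cause.

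In the V0 sector, which forms the proton channel, 4 of 8 tested genes rose and 1 fell in A375 batch 2, while 3 rose and 3 fell of 7 in SK-Hep1 and 3 rose and 3 fell of 7 in the libraries labelled SKBR3 (2 and 4 after median scaling). The shares of all genes were 17.9% and 15.7%, 37.3% and 18.2%, and 47.3% and 14.7% (30.6% and 25.3% after median scaling) in that order. ATP6V0B, a subunit of the proteolipid ring, changed in opposite directions. It fell from 82.9, 70.1 and 67.9 to 34.2, 36.9 and 35.9 TPM in SK-Hep1 (-1.02, SE 0.08, adjusted p = 4.32e-05) and from 140, 140 and 146 to 57.1, 58.5 and 52.1 TPM in the libraries labelled SKBR3 (-1.33, SE 0.06, adjusted p = 3.55e-06). It rose from 202, 208 and 181 to 240, 277 and 256 TPM in A375 batch 2 (0.39, SE 0.07, adjusted p = 0.00463).

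ATP6V0C, the other ring subunit among these genes, fell by 0.35 on the log2 scale in SK-Hep1 and by 0.40 in the libraries labelled SKBR3, and had 172 ± 2.67 and 172 ± 15.1 TPM in A375 batch 2. ATP6V0D1, which couples the ring to the rotor, fell in A375 batch 2 from 86.0, 85.5 and 78.7 to 61.1, 61.9 and 68.3 TPM (-0.38, adjusted p = 0.00344) and rose in SK-Hep1 (0.37) and in the libraries labelled SKBR3, from 85.4, 81.1 and 81.7 to 114, 115 and 115 TPM (0.47).

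The subunits a and e of V0 have several genes each, which allowed the mix of isoforms to be read as shares of their summed TPM. For subunit a, TCIRG1, the isoform known for osteoclasts and not among the 50 genes, was included. ATP6V0A1 went from 28.9%, 27.6% and 27.6% of subunit a to 35.9%, 36.5% and 34.8% in A375 batch 2, and from 25.4%, 28.3% and 24.3% to 36.7%, 38.8% and 33.1% in SK-Hep1. In the libraries labelled SKBR3 it had a larger share, which went the other way, from 70.1%, 69.2% and 69.0% to 55.2%, 63.8% and 57.4%. TCIRG1 had 68.2% of subunit a in SK-Hep1 siControl, 44.0% in A375 batch 2 and 8.16% in the libraries labelled SKBR3. ATP6V0A4, best known from kidney, rose in A375 batch 2 from 3.91, 3.86 and 2.45 to 5.52, 6.73 and 6.73 TPM (0.75, adjusted p = 0.0152) and had at most 0.24 TPM in any library of the other lines.

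ATP6V0E2 lost share of subunit e in all 3 full-length comparisons, from 14.7% to 11.1% in A375 batch 2, from 25.3% to 15.3% in SK-Hep1 and from 37.8% to 28.9% in the libraries labelled SKBR3, as group means without overlap between libraries. ATP6V0E1 rose by 0.40, 0.20 and 0.22 in that order, and ATP6V0E2 fell by 0.69 on the log2 scale in SK-Hep1 and by 0.36 in the libraries labelled SKBR3. The 0.20 of ATP6V0E1 in SK-Hep1 lies near the median of 0.18 over all genes there. After median scaling the ATP6V0E1 value in the libraries labelled SKBR3 was -0.02 and not called; a share does not move with scaling.

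**Figure D4:**
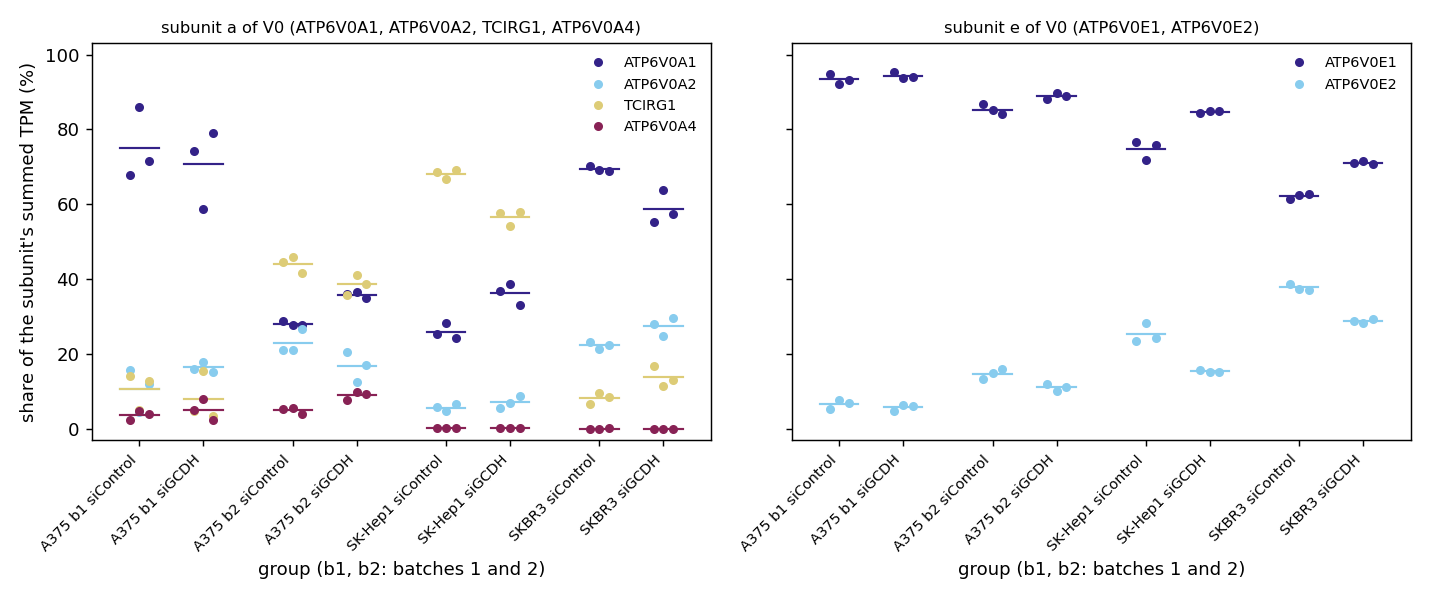
Share of the summed TPM of subunit a (left: ATP6V0A1, ATP6V0A2, TCIRG1 and ATP6V0A4) and subunit e (right: ATP6V0E1 and ATP6V0E2) of the V0 sector in each library (points), with group means as lines, by line, batch and treatment. In SK-Hep1 the share of ATP6V0A1 is 24.3% to 28.3% with siControl and 33.1% to 38.8% with siGCDH, and the share of ATP6V0E2 is lower with siGCDH in each full-length line.

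In the V1 sector, 6 of 11 tested genes rose and 1 fell in SK-Hep1, 9 of 13 rose and 1 fell in the libraries labelled SKBR3 (3 and 2 after median scaling), and 2 rose and 2 fell of 10 in A375 batch 2. The shares of all genes were 37.3% and 18.2%, 47.3% and 14.7% (30.6% and 25.3% after median scaling), and 17.9% and 15.7% in that order. ATP6V1A, the subunit that holds the catalytic site, fell in all of these comparisons. It went from 26.4, 25.2 and 26.2 to 10.6, 12.4 and 11.9 TPM in SK-Hep1 (-1.09, SE 0.08, adjusted p = 2.79e-05), from 50.7, 53.1 and 51.1 to 30.9, 27.02 and 33.3 TPM in the libraries labelled SKBR3 (-0.75, SE 0.08, adjusted p = 0.000189), and from 46.3, 45.2 and 46.3 to 40.5, 38.0 and 41.4 TPM in A375 batch 2 (-0.20, SE 0.06, adjusted p = 0.0338). In batch 1 it had 17.53, 24.9 and 22.0 against 13.9, 17.52 and 17.1 TPM and was not called. Its partner in the catalytic ring, ATP6V1B2, rose in SK-Hep1 from 30.1, 27.9 and 29.6 to 50.8, 54.9 and 50.4 TPM (0.81, SE 0.07, adjusted p = 3.82e-05).

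Of the rotor and stalk subunits, ATP6V1D fell in A375 batch 2 from 114, 112 and 106 to 83.4, 78.7 and 89.3 TPM (-0.40, adjusted p = 0.00204) and rose in SK-Hep1 (0.46) and in the libraries labelled SKBR3 (0.27). ATP6V1G1, of the peripheral stalk, rose in all 3, by 0.32, 0.59 and 0.31, and ATP6V1F, of the rotor, by 0.28, 0.62 and 0.12, of which the last turned to -0.12 after median scaling. The values of 0.31 for ATP6V1G1 and 0.27 for ATP6V1D in the libraries labelled SKBR3 lie near the median of 0.29 over all genes there. After median scaling 1 of the 50 genes was called higher both there and in A375 batch 2, against 5 as deposited. ATP6V1H, a regulatory subunit, was called in none of the 4. The neuronal stalk isoform ATP6V1G2 rose from 1.67, 2.12 and 3.29 to 5.93, 8.42 and 8.38 TPM in SK-Hep1 (1.37, SE 0.21, adjusted p = 0.00104) and from 3.14, 3.0 and 5.54 to 14.8, 23.07 and 18.7 TPM in the libraries labelled SKBR3 (2.04, SE 0.23, adjusted p = 0.000223). Its value is uncertain, since it shares exon bases with ATP6V1G2-DDX39B, which in turn overlaps DDX39B. DDX39B had 553 and 627 TPM in SK-Hep1 and 819 and 1140 TPM in the libraries labelled SKBR3 with siControl and siGCDH. ATP6V1B1, a subunit known from kidney and inner ear, rose in the libraries labelled SKBR3 from 3.12, 2.26 and 2.25 to 4.78, 5.10 and 10.4 TPM (1.07), and shares exon bases with VAX2. ATP6V1D shares 269 exon bases with EIF2S1 on the other strand, which averaged at most 234 TPM in a group. The general isoforms kept most of each subunit: ATP6V0D1 had at least 99.2% of subunit d in every group, ATP6V1B2 at least 87.9% of subunit B, ATP6V1C1 at least 94.1% of C, ATP6V1E1 at least 93.3% of E and ATP6V1G1 at least 92.0% of G.

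The within-line comparisons use separate libraries, so their calls could be set side by side. Of the 27 genes higher in SK-Hep1 and the 26 higher in the libraries labelled SKBR3, 20 were shared (74.1% of the first and 76.9% of the second, against 62.9% and 43.8% for all genes). After median scaling 8 were shared, of 23 and 13 (34.8% and 61.5%, against 43.1% and 35.9%). Of 7 and 9 lower ones, 6 were shared (85.7% and 66.7%, against 50.3% and 54.8% for all genes): TPP1, GLB1, ATP6V0B, ATP6V0C, ATP6V0E2 and ATP6V1A. After median scaling the lower ones shared were 6 of 7 and 14 (85.7% and 42.9%, against 62.0% and 49.6%). GLA and GUSB were called in opposite directions. Of the 10 genes higher in A375 batch 2, 8 were also higher in SK-Hep1 (80.0%, and 29.6% of the 27, against 40.8% and 20.4% for all genes). Of the 12 lower ones, only ATP6V1A was also lower there (8.33%, and 14.3% of the 7, against 23.7% and 21.4% for all genes). Another 9 were higher there, where 37.3% of all genes tested were higher: ASAH1, ATP6V0D1, ATP6V1D, CTSD, CTSH, CTSZ, GAA, PSAP and TFE3. Of these, PSAP (0.15) and CTSD (0.19) lie near the median of 0.18 over all genes there, and the CTSD call was lost after median scaling. That scaling left 7 of 11 higher genes shared (63.6%, and 30.4% of the 23, against 32.9% and 21.0% for all genes). Of 12 lower ones 1 was shared (8.33%, and 14.3% of the 7, against 30.1% and 22.1%). Opposite calls were not counted over all genes, nor after median scaling. In the libraries labelled SKBR3, 5 of the 10 as deposited were higher (42.4% for all genes) and 2 of the 12 lower (22.9%). Opposite calls there were 1 of the 10 and 7 of the 12, where 14.7% of all genes tested were lower and 47.3% higher. After median scaling 1 of 11 was higher in both (against 25.3%) and 4 of 12 lower (against 39.8%).

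The difference of the siGCDH effect between lines was then tested directly as an interaction on 12 libraries. The effect in A375 batch 2 minus that in SK-Hep1 was called lower for 26 of 46 genes and higher for 9, against 28.8% and 17.4% of all genes (median -0.40 against -0.14). By family this was 18 lower and 3 higher of 27 lysosomal genes, and 8 lower and 6 higher of 19 pump genes. The largest among genes with at least 5 TPM were CD68 (-2.12, SE 0.09), TFE3 (-1.47, SE 0.12) and LIPA (-1.37, SE 0.14) on the lower side, and TPP1 (1.56, SE 0.12), ATP6V0B (1.41, SE 0.12) and GLB1 (1.01, SE 0.23) on the higher side. A375 batch 2 minus the libraries labelled SKBR3 gave 19 lower and 11 higher of 47, against 36.8% and 14.5% of all genes (median -0.29 against -0.26). After median scaling it gave 14 lower and 16 higher, against 4237 and 3739 of all 16820 genes tested. The ends of this contrast as deposited held TFE3 at -1.52 (SE 0.13) and LIPA at -1.34 (SE 0.14), and ATP6V0B at 1.72 (SE 0.09), GLB1 at 1.61 (SE 0.16) and TPP1 at 0.93 (SE 0.14). ATP6V1G2 had -1.89 (SE 0.36), but averaged only 0.887 and 1.06 TPM in A375 batch 2, where it was not tested, and entered through the libraries labelled SKBR3, where it is higher. Both contrasts share the A375 libraries.

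SK-Hep1 minus the libraries labelled SKBR3 gave 14 higher and 9 lower of 46, against 14.5% and 25.0% of all genes (median 0.04 against -0.11). After median scaling it gave 18 higher and 5 lower, against 3362 and 3196 of all 16480 genes tested. The difference was positive for GLA (0.91, SE 0.09), CTSB (0.77, SE 0.06) and LAMP1 (0.31, SE 0.09), and negative for TFEB (-0.86, SE 0.27), TPP1 (-0.63, SE 0.14) and CTSA (-0.54, SE 0.08). The TFEB call was lost under 10 alternatives. CD68 also passed (1.89, SE 0.29), but it was too low to be tested in the libraries labelled SKBR3 alone, entered this comparison through SK-Hep1, and was not called with a pseudocount of 0.1. TFE3 was not called (-0.05, SE 0.10, adjusted p = 0.721), which does not show that its effects are equal.

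**Figure D5:**
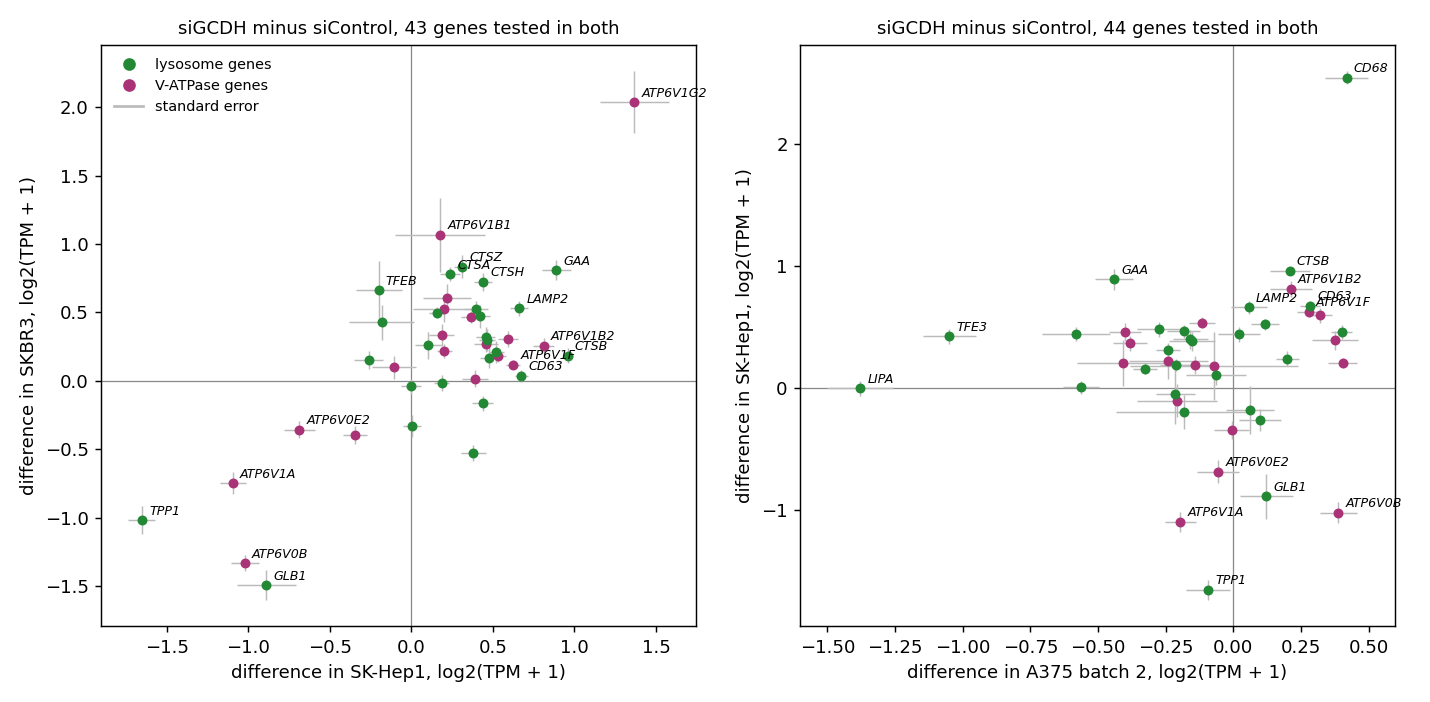
Difference in log2(TPM + 1), siGCDH minus siControl, of each gene tested in both comparisons, with standard errors as grey lines: SK-Hep1 against the libraries labelled SKBR3 (left, 43 genes) and A375 batch 2 against SK-Hep1 (right, 44 genes). On the left TPP1, GLB1, ATP6V0B, ATP6V1A and ATP6V0E2 lie at the lower left, and on the right LIPA and TFE3 lie to the left at -1.38 and -1.05 in A375 batch 2 while TPP1 lies at -1.65 in SK-Hep1.

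Across the 2 A375 batches the mean effect was called lower for 8 of 44 genes and higher for none, against 16.1% and 7.32% of all genes: LIPA (-1.43, SE 0.18, adjusted p = 0.000236), TFE3 (-0.95, SE 0.13), NEU1 (-0.53), CTSD (-0.48), ATP6V0D1 (-0.44), PSAP (-0.41), ATP6V1H (-0.41) and ATP6V1E1 (-0.26). As deposited, LIPA was lower in all 6 siGCDH libraries than in the siControl libraries of its batch, and so were TFE3, CTSD, PSAP, ATP6V0D1 and ATP6V1E1. This did not hold for NEU1 in batch 1 or ATP6V1H in batch 2. The share of all genes without overlap was not counted, and the median gene of batch 1 moved by -0.20. With quantile normalization the count was 5 lower and 3 higher (1642 and 1651 of all genes), and with median scaling 5 and 1 (1505 and 1506). Without the large non-coding and mitochondrial rows it was 4 and 3 (1380 and 1733). The effect differed between the batches for ATP6V1F (0.59, SE 0.11, adjusted p = 0.0157) and ATP6V1G1 (0.65, SE 0.13, adjusted p = 0.0178), 2 higher and none lower of 44 against 4.78% and 0.447% of all genes. Both calls were lost under either scaling. Batch, kit and time of preparation cannot be told apart.

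The 3′ UTRs of GENCODE 29 were searched for the 7-letter words whose holders ranked lowest in these same fold changes, since an siRNA can also lower transcripts that pair with its bases 2 to 8. The words differed by line: ACTGAGA and CTGAGAA ranked lowest of 15276 in A375 batch 2 and lowest of 13957 in batch 1. TCCTCAA and ATCCTCA ranked lowest in SK-Hep1 and in the libraries labelled SKBR3. The words were chosen on these libraries, so the values are a description without a test. In A375 batch 2, 2270 of 9904 genes held an A375 word and had a median log2 difference of -0.11 against 0.04 for the others, and 31.9% of them were called lower against 17.4%. Of the 41 lysosomal and pump genes searched there, 8 held one: 5 of them fell and none rose (LIPA, TFE3, NEU1, ATP6V0D1 and ATP6V1A), and of the other 33, 7 fell and 9 rose. In SK-Hep1 the A375 words went with medians of 0.16 and 0.15, and 3 of their 7 holders among these genes rose while 1 fell. In the libraries labelled SKBR3 the medians were 0.17 and 0.19, with 4 holders higher and 2 lower. In batch 1 they were -0.27 and -0.23, and none of the 5 holders searched was called. The other holders, ATP6V1C1, CTSK and HEXA, were not called. ATP6V1A fell by more in SK-Hep1 (-1.09) and in the libraries labelled SKBR3 (-0.75) than in A375 batch 2. Only the sites in the 5 genes that fell are shown, 5′ to 3′ on the transcript's strand of GRCh38, with the word in capitals.
LIPA, chr10:89214036-89214064 (-): gttctacttatCTGAGAAgcaaatccctg
TFE3, chrX:49028952-49028980 (-): ttgctccgcatACTGAGAatctaggccac
NEU1, chr6:31859491-31859519 (-): cctgccctcatCTGAGAAtactgtctttc
ATP6V0D1, chr16:67438185-67438213 (-): aactccctgacCTGAGAAccctggggcct
ATP6V1A, chr3:113810612-113810640 (+): agcctaagcttCTGAGAAtcatgtggcaa

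The words of the other lines were held by 1634 of 9900 genes in SK-Hep1, with a median of -0.04 against 0.18 for the others. Of the 41 lysosomal and pump genes searched there, 3 held one, of which TPP1 and SCARB2 fell and HEXA rose, and TPP1 holds 2 copies. In the libraries labelled SKBR3 the medians were 0.02 and 0.21, and of the same 3 genes 1 was higher and 1 lower. GLB1, ATP6V0B and ATP6V1A, which fell in both lines, hold neither word in the 3′ UTR searched. Sites in TPP1 and SCARB2 are shown, and the one in HEXA, which rose, is not.
TPP1, chr11:6614318-6614346 (-): ctgccttagatTCCTCAAtaagatgctgt
TPP1, chr11:6613686-6613714 (-): caatcaacaagTCCTCAAtcaacaagtcc
SCARB2, chr4:76159171-76159199 (-): ctggtaccatgATCCTCAacttagagagg
The siRNA sequences are not in the sources used here, and the part of these sites in the values was not tested. Line and word set move together and cannot be told apart.

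Other genes of the pathway, listed by role and not among the 50, were counted in the same way, and several of the shares lie near those of all genes called in the same comparison. Of the other lysosomal hydrolases, 14 of 32 rose and 4 fell in SK-Hep1, 18 of 32 and 5 in the libraries labelled SKBR3 (43.8% and 56.3% higher, against 37.3% and 47.3% of all genes), 7 of 33 and 6 in A375 batch 2, and 1 of 28 and 1 in batch 1. For lysosomal membrane proteins and transporters the counts in the same order were 11 and 5, 10 and 1, 3 and 4, and 0 and 2, each of 21 (52.4% higher in SK-Hep1 and 47.6% in the libraries labelled SKBR3). For genes that sort proteins to the lysosome they were 9 and 4, 8 and 3, 2 and 5, and 0 and 1, each of 17 (52.9% and 47.1% higher in the same pair). For assembly and accessory factors of the pump they were 7 and 1, 7 and 1, 3 and 1, and none, each of 14 (50% higher in either). For genes of mTORC1 and TFE regulation they were 8 and 0, 9 and 3, 4 and 2, and 0 and 2, each of 17 (47.1% and 52.9% higher). ATP6AP2, an accessory subunit of the pump, rose in SK-Hep1 from 117, 110 and 118 to 226, 239 and 242 TPM (1.03, SE 0.05, adjusted p = 3.48e-06). MITF, the melanocyte relative of TFE3, rose in A375 batch 2 from 12.2, 11.4 and 11.2 to 24.5, 19.7 and 22.2 TPM (0.87, SE 0.10, adjusted p = 0.00057), in the libraries in which TFE3 fell.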

How the data were processed

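Gene expression was measured by RNA sequencing in 24 libraries, 3 per group. The tools named in the submitters' processing notes are RSEM 1.3.1, STAR 2.7.0d and cutadapt 2.3, with the build hg38. Their settings, annotation and strand handling were not given in the sources used here. The authors deposited TPM per gene with 2 decimals, so count tests could not be used and depth is unknown.

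From these values, log2(TPM + 1) was computed, genes averaging 1 TPM or more over the libraries compared were kept, and limma 3.58.1 (R 4.3.3, trended empirical Bayes) was fitted to 6 libraries within a line or between siControl groups and to 12 for differences between lines and for the A375 batches. P-values are two-sided with Benjamini-Hochberg adjustment over all genes tested; genes under 0.05 are called. The procedure was tested on simulated data. Tables were made with pandas 2.3.3 and numpy 2.4.6 (Python 3.11.15).

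The members and lists were chosen with earlier results of these data known. The text names LAMP1, CTSD, TFE3 and TFEB throughout, up to 6 called genes per direction within a line and 3 in a difference (at least 5 TPM in the higher group, no overlap), and up to 3 per other list; any further gene was named after its values were seen. Alternatives were other pseudocounts (0.1 and 5), filters, scalings, a joint fit, no trend, a replicate block, and leaving out each library. Replicate numbers were not taken to pair the libraries, since no correlation of same-numbered deviations passed 0.1 (-0.0364 to 0.0785), although those of SK-Hep1 were all positive. Levels of the 3′ end kit were not compared with those of the other kit, since they differ in what they read.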

Additional observations from a re-analysis of the deposited data

Results flagged for a closer look

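The values here are differences of the siGCDH effect between lines or batches on the log2(TPM + 1) scale, tested by limma as interactions. Each is listed because that test passed, and no explanation is weighed.

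For A375 batch 2 minus SK-Hep1, the lysosomal membrane proteins CD68 and LAMP1 had -2.12 and -0.40, the protease CTSD -0.40, acid lipase LIPA -1.37 and the transcription factor TFE3 -1.47. The peptidase TPP1 had 1.56, the galactosidase GLB1 1.01 and the ring subunit ATP6V0B 1.41. In the same comparison with the libraries labelled SKBR3, TPP1 had 0.93, GLB1 1.61, ATP6V0B 1.72, LIPA -1.34, TFE3 -1.52 and the stalk subunit ATP6V1G2 -1.89, which averaged 0.887 and 1.06 TPM in A375 batch 2 and entered through the libraries labelled SKBR3.

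For SK-Hep1 minus the libraries labelled SKBR3, CD68 had 1.89, which rests on siControl libraries where it is listed at 0 and is not called with a pseudocount of 0.1, LAMP1 0.31, CTSA -0.54, CTSB 0.77, TPP1 -0.63, GLA 0.91 and TFEB -0.86. Between the A375 batches, the V1 subunits ATP6V1F and ATP6V1G1 differed by 0.59 and 0.65.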

How the results depend on the processing

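Of 119 results on named genes, 93 kept their call under every alternative run. Calls lost under 8 or more alternatives were NEU1 over both A375 batches (15 alternatives), PSAP in batch 1 (11), TFEB in the difference of SK-Hep1 and the libraries labelled SKBR3 (10), ATP6V1G1 (10) and ATP6V1F (8) between the A375 batches, and in the libraries labelled SKBR3 TFEB (9) and LAMP1 (8). LAMP1 there also turned to -0.0277 after median scaling. In batch 1 the count of 1 called gene became 2 with a filter of 5 TPM, 19 in a joint fit of all libraries, and 0 with quantile normalization, median scaling, removal of mitochondrial and large non-coding rows, no trend or the replicate block. The sum of members in batch 1 changed by -491.8 TPM as deposited and by 291.8 TPM without those rows. The joint fit gave 12 calls in A375 batch 2 (against 22) and 22 in the libraries labelled SKBR3 (against 35), and GCDH passed in batch 1 at -1.42. The 2 calls between the batches became 0 with quantile normalization, median scaling, removal of those rows, no trend or the replicate block. Leaving out single libraries gave 0 to 0 calls in batch 1, 19 to 21 in batch 2, 32 to 34 in SK-Hep1, 30 to 34 in the libraries labelled SKBR3, 0 to 5 between the batches and 6 to 12 over both. Between the batches it gave 5 without batch 1 siControl replicate 1, 4 without batch 1 siControl replicate 2, 1 without batch 2 siControl replicate 1 or 2, and 0 without batch 2 siControl replicate 3 or siGCDH replicate 2 or 3. The replicate block gave 21 calls in A375 batch 2, 34 in SK-Hep1 and 35 in the libraries labelled SKBR3, and in SK-Hep1 all 6 libraries correlated best with their own number, against 2 of 6 elsewhere. Depth is unknown, so counting error for low genes such as TFEB could not be given. The cause of these changes was not tested.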

Other observations

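The following lysosomal genes outside the 50 had large changes. CTSC, a dipeptidyl peptidase that activates serine proteases, rose in both A375 batches, with mean levels from 292 to 567 TPM in batch 1 (0.95) and from 460 to 899 TPM in batch 2 (0.97), and fell in SK-Hep1 from 150 to 117 TPM (-0.35) and in the libraries labelled SKBR3 from 51.6 to 28.5 TPM (-0.84). SMPD1, acid sphingomyelinase, rose in the full-length lines, from 18.3 to 30.5 TPM in A375 batch 2 (0.70), 20.9 to 70.6 TPM in SK-Hep1 (1.71) and 8.32 to 19.0 TPM in the libraries labelled SKBR3 (1.11). SLC17A5, the sialic acid exporter, fell from 9.02 to 2.62 TPM in SK-Hep1 (-1.47) and from 16.1 to 3.88 TPM in the libraries labelled SKBR3 (-1.81), and was not called in A375 batch 2 (0.00). MFSD12, a cysteine importer of lysosomes and melanosomes, fell in SK-Hep1 from 377 to 140 TPM (-1.42) and in both A375 batches (-0.84 and -0.46).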
